A study of Mus musculus with 8 samples.

Results

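The genes described are 10 secreted proteases of the ADAMTS family, chosen by gene symbol from the ADAMTS enzymes outside the group known for cleaving versican: Adamts2, Adamts3, Adamts6, Adamts7, Adamts8, Adamts10, Adamts12, Adamts16, Adamts17 and Adamts19. All 10 were found among the 49315 genes of the count files. They were read in RNA sequencing libraries of mouse embryo hearts at stage E18.5, 4 wild type (WT) and 4 homozygous for the M195I change in CHD4, the chromatin-remodelling ATPase of the NuRD complex. The labels name no strain, litter or pooling (column headers mark every library as male), so p-values measure the spread between these samples, which may in part be technical. Libraries summed to between 18375951 and 20815388 counts for WT hearts and between 18673488 and 21341235 counts for mutant hearts.

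In the mutant hearts 4 of the 10 transcripts rose: Adamts17, Adamts7, Adamts6 and Adamts19. None fell, and the other 6 were not called, where 5.75% of all genes tested rose and 7.49% fell (edgeR, adjusted p under 0.05). Adamts17 changed most, from 13.4 ± 1.35 to 19.4 ± 0.822 counts scaled to a common library size (CPM, TMM-scaled; mean ± SD, n = 4 per genotype), which is 44.5% more. The call for Adamts19 was lost on leaving out most single libraries, whereas those for the other 3 stood when any 1 library was left out. That of Adamts6 was nevertheless lost when only the libraries with transcripts of airway tissue were used. Those of Adamts7 and Adamts17 were lost with the gene Xist, which nearly separated the genotypes, as a covariate.

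ADAMTS enzymes are zinc metalloproteases that carry thrombospondin type 1 repeats and act in the extracellular matrix after a proprotein convertase has removed their prodomain. Their substrates differ by branch of the family: ADAMTS2 and ADAMTS3 remove the amino-terminal propeptides of fibrillar procollagens, and ADAMTS3 with its cofactor CCBE1 also activates the lymphatic growth factor VEGF-C. ADAMTS6, ADAMTS10 and ADAMTS17 are tied to fibrillin microfibrils, ADAMTS7 and ADAMTS12 bind cartilage oligomeric matrix protein, and loss of ADAMTS19 is known to cause heart valve disease.

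The sequence that defines these genes as enzymes is the stretch coding for the zinc-binding histidines. It is shown here for 9 members, to let 3 of the 4 paralogue pairs compared below be seen side by side. The site of Adamts19 is not printed here. Sequences run 5′ to 3′ on the coding strand, were read from GENCODE M21 transcripts (GRCm38), and have the codons of the histidines and of the catalytic glutamate in capitals.
Adamts2: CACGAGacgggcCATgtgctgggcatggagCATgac
Adamts3: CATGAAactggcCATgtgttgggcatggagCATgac
Adamts6: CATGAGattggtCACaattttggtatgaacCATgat
Adamts10: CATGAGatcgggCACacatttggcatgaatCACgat
Adamts7: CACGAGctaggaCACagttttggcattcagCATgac
Adamts12: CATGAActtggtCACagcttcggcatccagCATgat
Adamts17: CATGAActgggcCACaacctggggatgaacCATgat
Adamts16: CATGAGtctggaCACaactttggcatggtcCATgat
Adamts8: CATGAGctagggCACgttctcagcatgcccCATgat
Each of the 10 members held exactly 1 such site in frame, and so did all 19 ADAMTS genes of the annotation, whereas 42 of 21901 coding genes (0.192%) held the pattern at all. Only the coding strand of the longest coding sequence per gene was searched, in frame. Within these 36 bases Adamts2 and Adamts3 shared 32, Adamts6 and Adamts10 shared 29, and Adamts7 and Adamts12 shared 28. Adamts6 also shared 29 with Adamts16 and 28 with Adamts17, so sharing of that size was not confined to the paralogue pairs. Most of the bases in capitals were fixed by the search pattern itself. The least alike members shown, Adamts2 and Adamts12, shared 21.

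In every member the site was split by an intron, so the coordinates span the 2 exons that hold it. For Adamts2 these were exons 7 and 8 (chr11:50775403-50776137, plus strand), and for Adamts3 exons 8 and 9 (chr5:89707430-89707818, minus strand). The site of Adamts6 lay in exons 9 and 10 (chr13:104352847-104366812, plus strand), as did that of Adamts10 (chr17:33538157-33538282, plus strand). Exons 7 and 8 held it in Adamts7 (chr9:90179456-90180643, plus strand) and in Adamts12 (chr15:11241529-11255567, plus strand). In Adamts17 it was in exons 8 and 9 (chr7:66968898-67002476, plus strand), and likewise in Adamts16 (chr13:70787146-70791812, minus strand). Adamts8, with the fewest exons of the 10 (9), had it in exons 3 and 4 (chr9:30952721-30953381, plus strand).

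Some features of the libraries bear on the values. The tissue matched its label: the cardiac troponin gene Tnnt2 averaged 7098 CPM in WT libraries and 6917 CPM in mutant ones. Chd4 itself averaged 452 ± 6.37 CPM (WT) and 482 ± 8.48 CPM (mutant; n = 4 each), a log2 fold change of 0.09 ± 0.03 (SE) that was not called (edgeR, adjusted p = 0.094), and counts do not show the mutated base. Transcripts of lung epithelium were present in some hearts: the airway gene Scgb3a2 lay between 180 and 483 CPM in 5 libraries (replicates 1, 3 and 4 of WT, 3 and 4 of the mutant). It was at 0.849 CPM in WT replicate 2, and at 6.39 and 0.326 CPM in the first and second mutant replicates. The summed level of 10 lung epithelium markers ran from 2.40 to 517 CPM across WT libraries and from 1.40 to 795 CPM across mutants, with Sftpc at 0 in mutant replicate 2. Of the 9 markers tested, 0 were called. The elastin gene Eln, abundant in the walls of the great arteries, also varied widely within genotypes, from 1799 to 4695 CPM for WT and from 1979 to 3647 CPM for mutants. WT replicate 4 stood apart in the summed level of 4 Y-linked genes, 103 CPM against 202 to 217 CPM in the other 7 libraries, and every fit below was repeated without it. Haemoglobin transcripts made up 0.195% to 0.370% of counts in WT libraries and 0.123% to 0.193% in mutants, without overlap. In bulk tissue, fewer cells of a type and less RNA per cell cannot be told apart.

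Levels per length gave the order of the members in WT hearts. Adamts10 was highest at 13.5 ± 1.55 RPKM (CPM per kilobase of exon; SD, n = 4), and Adamts19 (12.7 ± 0.787) overlapped it. Adamts8 (10.3 ± 0.813) and Adamts2 (9.12 ± 1.55) came next and overlapped each other. Adamts7 (6.41 ± 0.36) and Adamts6 (5.65 ± 0.474) formed the next overlapping pair. Adamts12 (3.86 ± 0.659) stood alone between them and the pair of Adamts3 (1.88 ± 0.144) and Adamts17 (1.73 ± 0.174). Adamts16 was far below the rest at 0.116 ± 0.043 RPKM, with 8 to 22 counts per library. In the mutants Adamts19 had the highest mean (15.03 ± 1.55 RPKM) and Adamts10 the second (13.1 ± 1.29), and Adamts17 (2.498 ± 0.106) stood above Adamts3 (1.64 ± 0.169). Adamts2 and Adamts8 also changed places in the order of means.

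**Figure D1:**
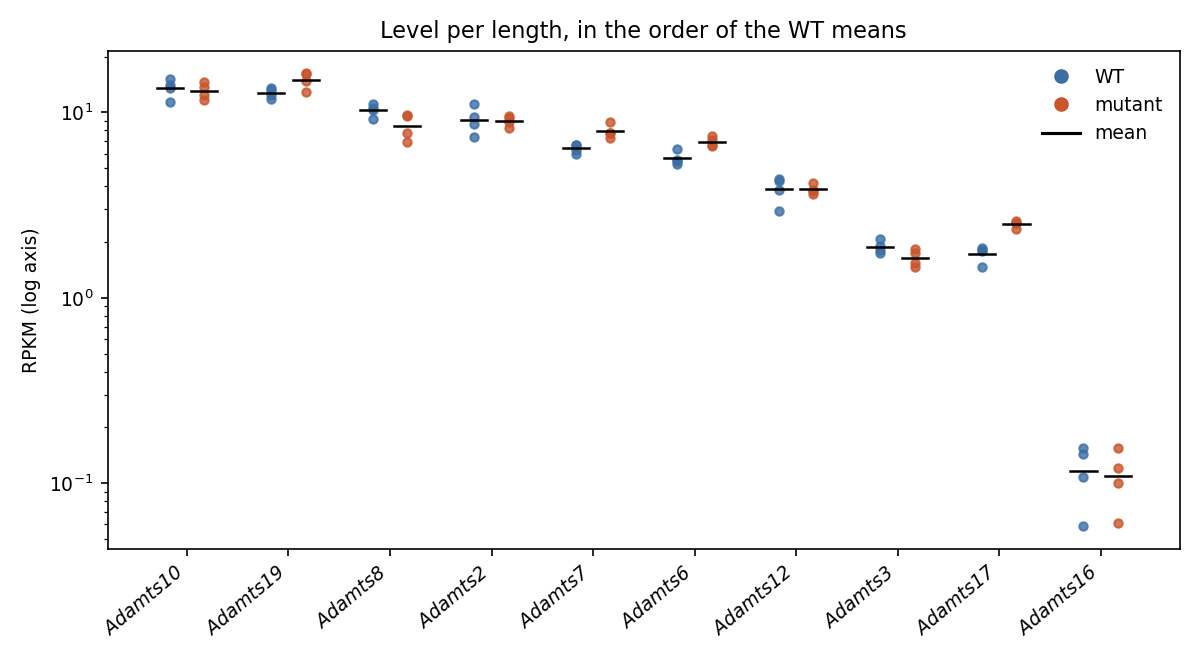
Level per exon length (RPKM, log axis) of the 10 ADAMTS genes, with 4 WT points in blue and 4 mutant points in orange per gene and black bars at the means. The genes are ordered by WT mean, from Adamts10 at 13.5 RPKM to Adamts16 at 0.116 RPKM.

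Genotypes were compared with the quasi-likelihood test of edgeR over the 16372 genes with enough counts, which include all 10 members, with Benjamini-Hochberg adjustment over all of them and a threshold of 0.05 for a call. Fold changes are given as log2 of mutant over WT, ± the standard error of that fit. Over all genes tested 13.2% were called, 5.75% as higher and 7.49% as lower, against 4 higher and 0 lower among the 10 members. The members' median log2 fold change was -0.01, and that of all genes tested was 0.00. Higher genes made up 43.5% of all calls, a share that became 68.4% with library totals in place of TMM, and the same 4 members were called under both scalings. CPM values of the genotypes did not overlap for 3 of the 10 members and for 18.6% of all genes tested. All 3 were higher in the mutants, a pattern found in 8.8% of genes tested, against 9.77% that were lower without overlap.

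**Figure D2:**
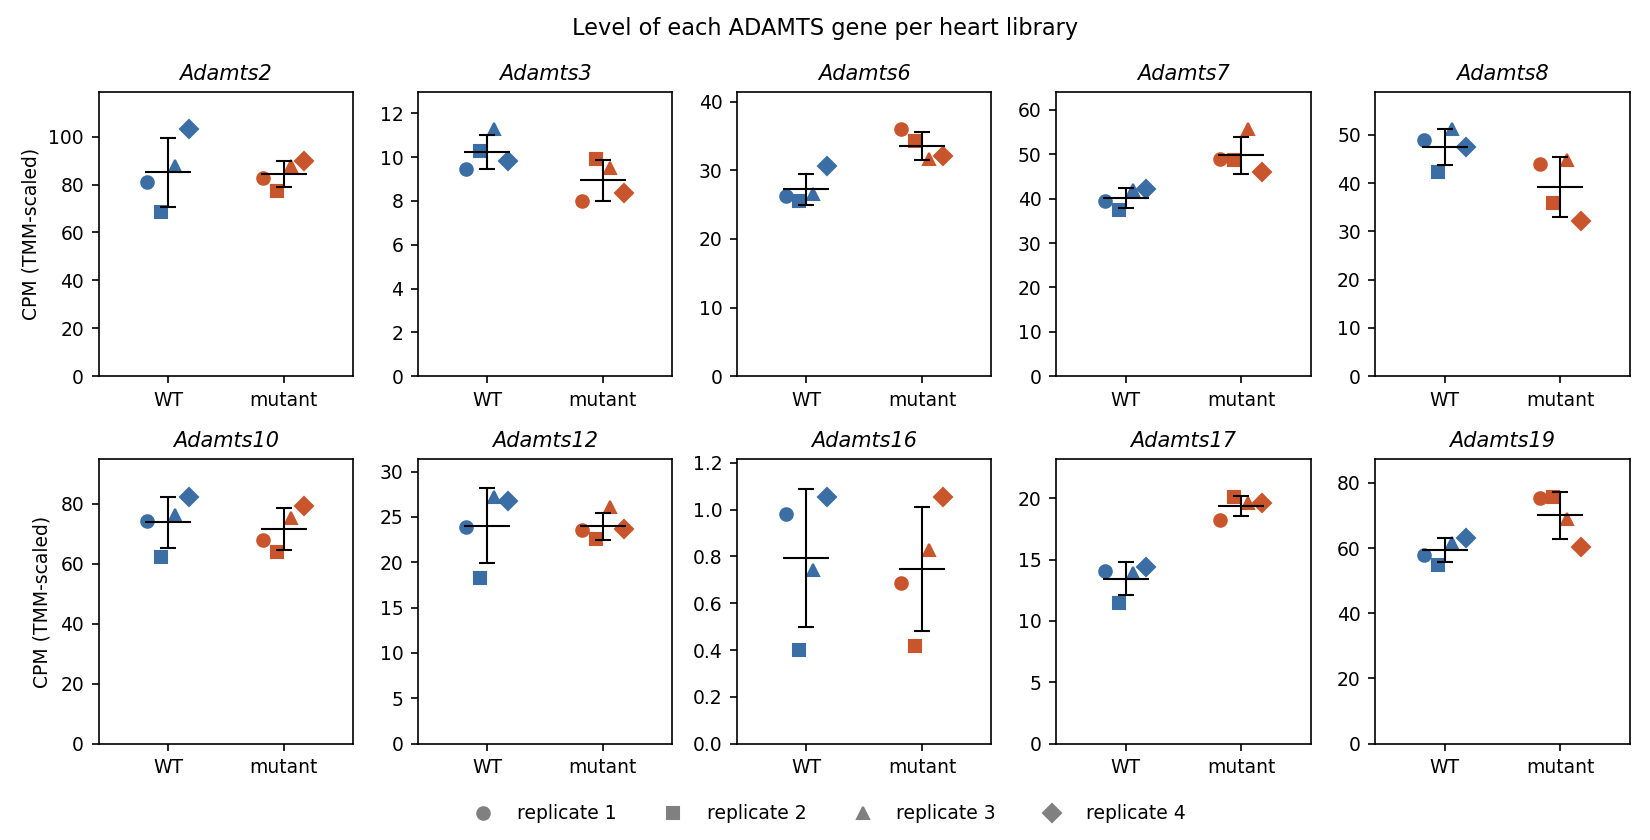
TMM-scaled CPM of each ADAMTS gene (vertical axes from 0) in the WT and mutant libraries, with a marker shape per replicate number and black bars for the mean and SD (n = 4). Adamts6, Adamts7 and Adamts17 show no overlap between the genotypes, and Adamts19 overlaps through mutant replicate 4.

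Adamts17 (chromosome 7, 66839735 to 67153171, plus strand, GRCm38) codes for a protease linked to fibrillin microfibrils, whose loss in humans causes a short-stature and lens disorder. Its levels were 14.0, 11.4, 13.9 and 14.4 CPM in WT replicates 1 to 4, and 18.2, 20.1, 19.6 and 19.6 CPM in the mutants. Every mutant value exceeded every WT value. The log2 fold change was 0.53 ± 0.08 (95% interval 0.36 to 0.70; edgeR, adjusted p = 0.00049). WT replicate 2 lay below the other WT libraries, and without it the fold change was 0.46 (edgeR, adjusted p = 0.00099). Its rise was 0.47 in the 5 libraries with airway transcripts (edgeR, adjusted p = 0.0016) and 0.75 in the 3 with few of them, where the only WT library is replicate 2, the lowest for this gene. The call was lost with the level of Xist as a covariate (0.49, edgeR adjusted p = 0.077). Xist nearly separated the genotypes, at 1.28 to 1.58 CPM in WT and 1.53 to 1.92 CPM in mutants. That fit can therefore hardly tell the covariate from genotype, and it kept 307 of the 2168 calls over all genes. No exon of Adamts17 overlapped an exon of another gene.

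Upstream sequence was at hand for 4 members, Adamts2, Adamts3, Adamts12 and Adamts17, and is shown for the member that changed most and for one that was not called. The windows are the 250 bases before the RefSeq start (GRCm38.p6), 5′ to 3′ on the strand of the gene, with each CG dinucleotide in capitals: Adamts17 at chr7:66839485-66839734 (plus strand) and Adamts3 at chr5:89883335-89883584 (minus strand).
Adamts17: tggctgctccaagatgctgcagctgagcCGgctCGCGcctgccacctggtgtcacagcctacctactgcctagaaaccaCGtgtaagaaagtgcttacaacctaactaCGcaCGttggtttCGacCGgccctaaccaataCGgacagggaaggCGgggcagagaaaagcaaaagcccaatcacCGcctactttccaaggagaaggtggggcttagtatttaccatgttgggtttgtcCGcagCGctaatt
Adamts3: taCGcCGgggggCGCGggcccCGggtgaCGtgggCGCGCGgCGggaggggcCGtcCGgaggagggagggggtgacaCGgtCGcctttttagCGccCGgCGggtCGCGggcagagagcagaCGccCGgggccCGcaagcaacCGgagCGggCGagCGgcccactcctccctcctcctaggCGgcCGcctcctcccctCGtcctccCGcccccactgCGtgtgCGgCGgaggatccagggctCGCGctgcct
The Adamts17 window held 13 CG dinucleotides, a number reached by 31.5% of 32851 such windows, and 54.4% G and C bases. That of Adamts3 held 35 (2.97% of windows hold as many), Adamts2 held 34 and Adamts12 held 6. The motif CG reads the same on both strands, and 92.1% of windows hold at least 1. These counts describe the sequence only.

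Adamts19 (chromosome 18, 58836764 to 59053678, plus strand) is the closest relative of Adamts17 among the members, and is known from heart valves. WT levels were 57.9, 54.8, 61.4 and 63.0 CPM, and mutant levels were 75.4, 75.8, 69.0 and 60.3 CPM. Mutant replicate 4 fell inside the WT range, and the other 3 mutant libraries lay above it. The log2 fold change was 0.24 ± 0.07 (95% interval 0.08 to 0.40; edgeR, adjusted p = 0.047). The call was lost on leaving out WT replicate 1, 2, 3 or 4 or mutant replicate 1, 2 or 3 (edgeR, adjusted p from 0.059 to 0.13), and it held without mutant replicate 4 (0.31, edgeR adjusted p = 0.0023). In the 5 libraries with airway transcripts the difference was 0.08 (edgeR, adjusted p = 0.46), and in the other 3 it was 0.47, with WT replicate 2, again the lowest of its genotype, as the only WT library. Mutant replicate 4 also had the highest Scgb3a2 (483 CPM), while with the level of lung epithelium markers as a covariate the difference was 0.24 (edgeR, adjusted p = 0.015).

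Adamts6 (chromosome 13, 104287873 to 104494763, plus strand), a microfibril-linked protease needed for heart development in mice, rose in the mutants. The WT libraries held 26.3, 25.5, 26.6 and 30.6 CPM, and the mutants 36.02, 34.3, 31.7 and 32.0 CPM. The genotypes did not overlap, with WT replicate 4 only just below mutant replicate 3. This was a log2 fold change of 0.30 ± 0.06 (95% interval 0.16 to 0.44; edgeR, adjusted p = 0.0063), or 23.1% more. The call held on leaving out any 1 library (0.26 to 0.36), but not in the 5 libraries with airway transcripts (0.19, edgeR adjusted p = 0.13). In the other 3, with WT replicate 2 as the only WT library, it was 0.47.

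Adamts10 (chromosome 17, 33524204 to 33553782, plus strand), the closest relative of Adamts6 and a binding partner of fibrillin-1, was not called. The WT libraries had 74.1, 62.2, 76.3 and 82.4 CPM, and the mutant ones 67.8, 63.8, 75.1 and 79.4 CPM. The ranges overlapped almost fully, and replicate 2 was lowest and replicate 4 highest in both genotypes. Its log2 fold change was -0.04 ± 0.10, with a 95% interval from -0.27 to 0.18 (edgeR, adjusted p = 0.85).

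Adamts7 (chromosome 9, 90163069 to 90208071, plus strand), a protease of vascular smooth muscle known from genetic studies of coronary disease, rose as well. WT replicates 1 to 4 had 39.5, 37.4, 42.0 and 42.2 CPM, and mutant replicates 48.9, 48.7, 55.7 and 45.9 CPM. All 4 mutant libraries lay above all 4 WT libraries. A log2 fold change of 0.31 ± 0.06 was measured (95% interval 0.17 to 0.44; edgeR, adjusted p = 0.0042), or 23.6% more, and the call was kept without any 1 library (0.26 to 0.35) and within the 5 libraries with airway transcripts (0.30, edgeR adjusted p = 0.027). It was lost with Xist, which nearly separated the genotypes, as a covariate (0.38, edgeR adjusted p = 0.071). Exons of Adamts7 share 122 bases (1.94% of their length) with the opposite-strand gene Tbc1d2b, at 36.3 CPM (WT) and 40.3 CPM (mutant; 0.15 ± 0.06; edgeR, adjusted p = 0.096). The sources used here do not say how strand was treated.

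Adamts12 (chromosome 15, 11064790 to 11346867, plus strand), the relative of Adamts7 that also binds cartilage oligomeric matrix protein, was not called. In WT it stood at 23.9, 18.3, 27.3 and 26.7 CPM, and in the mutants at 23.6, 22.6, 26.1 and 23.7 CPM. All mutant values fell inside the WT range, whose low end was WT replicate 2. Its log2 fold change was -0.00 ± 0.11, with a 95% interval from -0.26 to 0.25 (edgeR, adjusted p = 0.99), and its sign changed under several alternatives.

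Adamts2 (chromosome 11, 50602084 to 50807573, plus strand), the main procollagen N-propeptidase of skin and other connective tissues, was not called. WT hearts held 80.9, 68.5, 87.9 and 103 CPM, and mutant hearts 82.8, 77.5, 87.6 and 89.7 CPM. The mutant range lay within the WT range, and the fold change was -0.01 ± 0.12 (95% interval -0.31 to 0.28; edgeR, adjusted p = 0.98). Adamts3 (chromosome 5, 89677087 to 89883334, minus strand) codes for the enzyme that also acts on VEGF-C, and measured 9.47, 10.3, 11.3 and 9.83 CPM in WT replicates 1 to 4 and 7.98, 9.91, 9.49 and 8.35 CPM in the mutants. Mutant replicates 1 and 4 were below all WT libraries and the other 2 overlapped them. Its fold change of -0.19 ± 0.10 was not called (95% interval -0.40 to 0.01; edgeR, adjusted p = 0.22).

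Adamts8 (chromosome 9, 30942562 to 30963838, plus strand), a protease abundant in lung and heart, had the most negative value among the members. WT levels were 49.0, 42.4, 51.2 and 47.4 CPM, and mutant levels were 43.9, 35.96, 44.8 and 32.0 CPM. Mutant replicates 2 and 4 lay below every WT library, and mutant replicates 1 and 3 above the lowest. The log2 fold change was -0.28 ± 0.11 (unadjusted 95% interval -0.54 to -0.02), which was not called (edgeR, adjusted p = 0.16). It was called lower by DESeq2 (-0.28, adjusted p = 0.046) and with no filter on low counts (edgeR, adjusted p = 0.00069). Its exons share 489 bases with the opposite-strand gene Gm29724, which had at most 21 counts per library. Adamts16 (chromosome 13, 70727802 to 70841811, minus strand), studied mainly in kidney and gonad, was near the limit of detection. It had 18, 8, 15 and 19 counts in WT and 13, 9, 16 and 22 counts in mutant libraries, and with a 95% interval from -0.82 to 0.66 around -0.08 no difference was detectable at this depth (edgeR, adjusted p = 0.93).

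**Figure D3:**
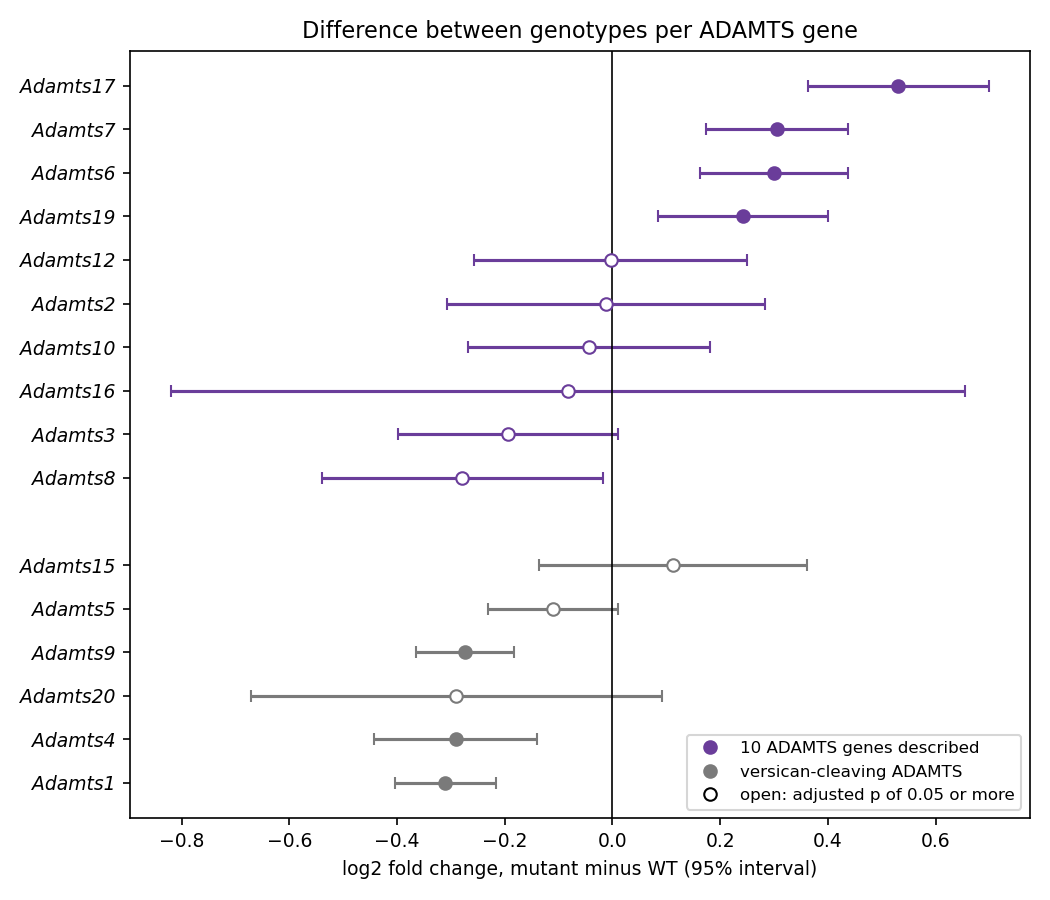
Log2 fold change (mutant minus WT, horizontal axis) with 95% intervals from the edgeR fit for the 10 ADAMTS genes (purple) and the 6 versican-cleaving ADAMTS genes (grey); filled points passed an adjusted p of 0.05. Among the purple genes the filled points are all above 0, from 0.24 (Adamts19) to 0.53 (Adamts17), and among the grey ones all below 0.

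Within the rest of the family the called genes lay on the other side. Of the 6 versican-cleaving ADAMTS genes, 3 fell and none rose: Adamts1 (134 ± 6.44 to 108 ± 4.61 CPM, -0.31 ± 0.04, edgeR adjusted p = 0.00033), Adamts9 (147 ± 4.21 to 121 ± 6.54 CPM, -0.27 ± 0.04, edgeR adjusted p = 0.00068, with 9.18% of its exon length shared with an opposite-strand gene) and Adamts4 (-0.29 ± 0.07, edgeR adjusted p = 0.014). The call of Adamts4 was lost without mutant replicate 3 (edgeR, adjusted p = 0.0501). Adamts5 (-0.11), Adamts20 (-0.29) and Adamts15 (0.11) were not called. Over all genes tested, 7.49% were called lower and 5.75% higher. The summed level of the 6 versican-cleaving genes, most of it from Adamts1 and Adamts9, was 349 to 372 CPM for WT and 299 to 313 CPM for mutants. That of the 10 members was 331 to 421 CPM for WT and 389 to 420 CPM for mutants. Of the 3 remaining ADAMTS genes, Adamts14 (0.09 ± 0.08, edgeR adjusted p = 0.56) and Adamts18 (0.37 ± 0.37, edgeR adjusted p = 0.58) were tested and not called, and Adamts13 averaged 0.103 CPM in WT and was not tested. The difference in direction between these groups was not tested.

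Paralogue pairs were then compared within libraries, since a ratio of 2 genes in the same library does not depend on scaling. The log2 ratio of Adamts6 to Adamts10 was -1.43 ± 0.11 in WT and -1.09 ± 0.22 in mutants (SD, n = 4), a difference of 0.34 (exact two-sided permutation test, p = 0.057). For Adamts7 to Adamts12 it was 0.76 ± 0.19 in WT and 1.05 ± 0.07 in mutants, a difference of 0.29 (exact permutation test, p = 0.057). Adamts17 to Adamts19 went from -2.14 ± 0.09 to -1.85 ± 0.18, a difference of 0.30 (exact permutation test, p = 0.057), and Adamts2 to Adamts3 from 3.04 ± 0.27 to 3.24 ± 0.21, a difference of 0.20 (exact permutation test, p = 0.29). Adjusted over the 4 pairs, p was 0.076 for the first 3 and 0.29 for the last, so no pair passed. The smallest p these 70 splits allow is 0.029, and in every pair the genotypes overlapped. After adjustment over the 4 pairs, a single pair at that smallest p would not pass 0.05. The test could pass only if several pairs separated together. Adamts6 was called and Adamts10 was not, and likewise Adamts7 and not Adamts12. With that limit, these ratios cannot decide whether the paralogues differed in response.

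Within WT the spread was shared by most members. WT replicate 2 was the lowest WT library for 9 of the 10 members, all but Adamts3, and WT replicate 4 was the highest for 7. Among the mutants, replicate 2 was lowest for 4 members, Adamts2, Adamts10, Adamts12 and Adamts16, and highest for 3, Adamts3, Adamts17 and Adamts19. Both libraries numbered 2 had under 1 CPM of Scgb3a2, and each also had the lowest Eln of its genotype, 1799 CPM in WT and 1979 CPM in the mutant. Summed over 9 fibrillar procollagen genes, WT replicate 2 held 6734 CPM against 8275 to 9247 CPM in the other WT libraries. The coefficient of variation in WT was 16.97% for Adamts2, 17.1% for Adamts12 and 11.5% for Adamts10, against 5.61% for Adamts7 and 6.19% for Adamts19. The part of vessel or airway tissue in this spread was not tested.

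**Figure D4:**
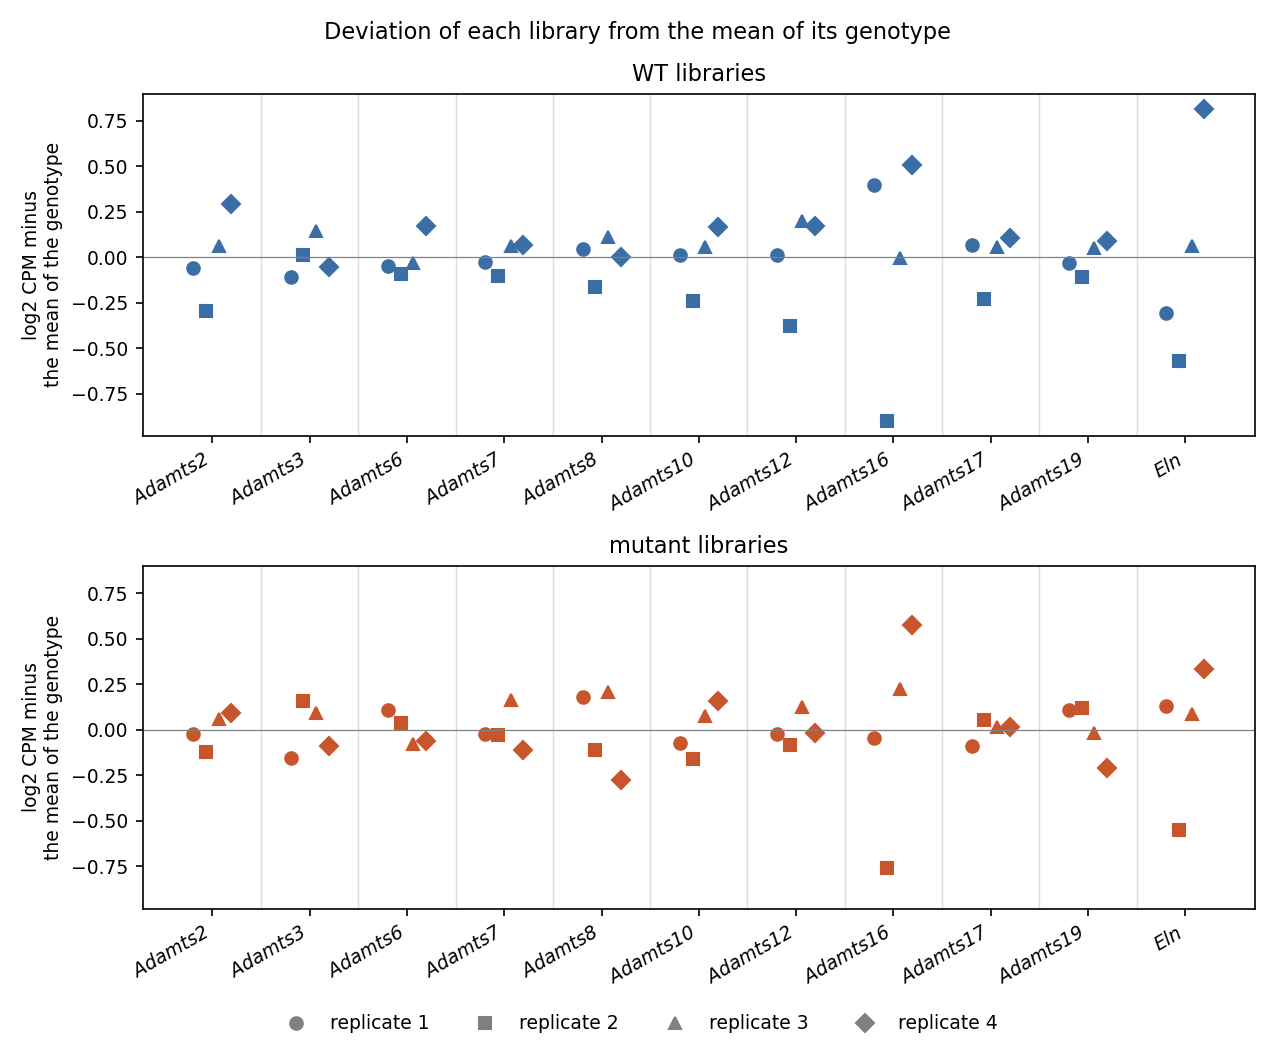
Deviation of each library from the mean of its genotype (log2 CPM, vertical axes) for the 10 ADAMTS genes and elastin (Eln), with WT libraries above, mutant libraries below and a marker shape per replicate number. WT replicate 2 (squares) is the lowest WT point for all genes shown but Adamts3, and Adamts16 spreads most among the ADAMTS genes.

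The partners and substrates of these proteases are given list by list, to be read against the 13.2% of all genes tested that were called. Among 9 fibrillar procollagen genes, the class to which known substrates of ADAMTS2 and ADAMTS3 belong, 1 fell and none rose. It was Col11a1 (29.4 ± 2.77 to 19.8 ± 4.12 CPM, -0.57 ± 0.14, edgeR adjusted p = 0.031), a call that did not hold if WT replicate 1, 3 or 4 or mutant replicate 1, 2 or 3 was omitted. With WT replicate 2 left out, 4 of the 9 were called lower. The abundant Col1a1 (-0.04) and Col3a1 (0.01) were not called. None of the 4 tested genes among the other procollagen-processing factors was called with all 8 libraries and TMM. Tll1, a tolloid-like protease, was nearest at 0.41 ± 0.14 (edgeR, adjusted p = 0.065), without overlap between the genotypes, and 1 gene of this list was called higher with library totals, with no filter and with the lung covariate. In the VEGF-C pathway, 1 of 6 fell, the receptor Kdr (-0.18 ± 0.04, edgeR adjusted p = 0.017), a call that failed on omitting WT replicate 1 or mutant replicate 3. With library totals in place of TMM, neither Col11a1 nor Kdr was called lower. Ccbe1 (-0.13), Vegfc (-0.19) and the lymphatic receptor Flt4 (-0.02) were not called.

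Microfibril and elastic fibre genes gave 1 lower call out of 13. It was Efemp2, a fibulin needed for elastic fibre assembly (-0.17 ± 0.05, edgeR adjusted p = 0.042), and it was kept on leaving out WT replicate 1 but not any of the other 7 libraries. Fbn1 (467 CPM for WT, 468 CPM for mutants; 20.1% of its exon length is shared with an opposite-strand gene) and Fbn2 (0.20, edgeR adjusted p = 0.29) were not called. Of 5 thrombospondin-type genes, Thbs4 rose (0.42 ± 0.10, edgeR adjusted p = 0.036) and Thbs3 fell (-0.31 ± 0.08, edgeR adjusted p = 0.017). Omitting any 1 WT library or mutant replicate 3 ended the call of Thbs4, and omitting WT replicate 1, 3 or 4 or mutant replicate 2, 3 or 4 ended that of Thbs3. With library totals neither Efemp2 nor Thbs3 was called lower, and DESeq2 and limma-voom did not call Efemp2 either. Comp, whose product ADAMTS7 and ADAMTS12 bind, averaged 4.92 CPM for WT and 5.71 CPM for mutants and was not called.

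Among 8 inhibitors and clearance receptors, 2 fell and none rose. Timp3, the matrix-bound inhibitor of several ADAMTS enzymes, went from 194 ± 5.27 to 165 ± 5.94 CPM (-0.23 ± 0.04, edgeR adjusted p = 0.0011). The protease trap A2m went from 13.7 ± 0.986 to 6.80 ± 1.21 CPM (-1.01 ± 0.12, edgeR adjusted p = 7.4e-05). Both calls held without any 1 library, and exons of Timp3 share 21.3% of their length with the opposite-strand gene Syn3. Of 4 proprotein convertases, which activate ADAMTS precursors, Pcsk6 fell (30.6 ± 2.62 to 25.0 ± 0.737 CPM, -0.29 ± 0.06, edgeR adjusted p = 0.0061), whereas Furin (0.02), Pcsk5 (0.01) and Pcsk7 (0.06) were not called. Of 7 ADAMTS-like genes, which lack the protease domain, 1 fell, Papln (-0.40 ± 0.09, edgeR adjusted p = 0.0075). Of 8 tested genes for other matrix substrates, Sdc4 (-0.27 ± 0.06, edgeR adjusted p = 0.0076) and Postn (-0.18 ± 0.05, edgeR adjusted p = 0.021) fell. The call of Postn ended on omitting WT replicate 4 or mutant replicate 2, 3 or 4, while Papln, Sdc4 and Pcsk6 kept theirs without any 1 library. With library totals, 1 of the genes for other matrix substrates was called lower.

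Markers of the cell types a heart sample could hold were read beside the 4 risen members. Their counts of calls are to be read against the 5.75% of all genes tested that were higher and the 7.49% that were lower. Fibroblast and valve markers gave 2 lower calls of 7 and summed to 3577 to 4528 CPM in WT and 3686 to 4062 CPM in mutants. Smooth muscle and pericyte markers summed to 1211 to 1348 CPM in WT and 1051 to 1225 CPM in mutants, with 1 of 6 lower. That gene was Acta2 (-0.23 ± 0.05, edgeR adjusted p = 0.0045), which made up most of the sum. It stood at 836 to 924 CPM in WT and 696 to 789 CPM in mutants. Over the 6 markers, 2 fold changes were positive and 4 negative, with a median of -0.04. Endothelial markers (1075 to 1144 CPM against 1037 to 1162 CPM) had 1 of 5 lower, and cartilage markers (15.7 to 33.7 CPM against 14.98 to 44.3 CPM) had 0 of 4 called. Epicardial markers summed to 230 to 251 CPM in WT libraries and 177 to 235 CPM in mutants. Among these 4, Tbx18 rose (0.48 ± 0.09, edgeR adjusted p = 0.0051) and Msln fell (-0.39 ± 0.10, edgeR adjusted p = 0.039). Cardiomyocyte markers had 1 of 5 lower, Actn2 (-0.28 ± 0.04, edgeR adjusted p = 0.00076), and skeletal muscle markers 2 of 4, Ckm and Myh8. On the skeletal muscle list, Ckm averaged 2363 CPM in WT, close to Actn2 (2359 CPM), and Myod1 had 0 counts in every library. The calls of Ckm and Myh8 therefore do not show skeletal muscle in the samples. Erythroid markers had 0 of 4 called (median -0.75), and Hba-a1 did not overlap between the genotypes (-0.89 ± 0.26, edgeR adjusted p = 0.081). Macrophage markers had 0 of 4 called. The endocardial gene Npr3, on the endothelial list, measured 135, 135, 126 and 131 CPM in WT and 163, 167, 146 and 127 CPM in mutant replicates 1 to 4 (0.19 ± 0.08, edgeR adjusted p = 0.14). Mutant replicate 4 was the lowest mutant library for Npr3 and for Adamts19. Other markers went differently. Of the 5 endothelial markers 3 had positive and 2 negative fold changes, the latter being Pecam1 (-0.13) and Kdr (-0.18). Of the 7 fibroblast and valve markers 6 were negative, among them Sox9 (-0.16), whose highest mutant library was replicate 4 (19.96 CPM). The part of these markers in the rise of Adamts6, Adamts7, Adamts17 and Adamts19 was not tested.

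The genes whose log2 CPM followed each risen member most closely over the 8 libraries were sought among 13255 genes averaging 1 CPM or more, as a description without a test. For Adamts17 they were Ercc6l, Ttyh3 and Kalrn (Pearson r from 0.985 to 0.988). For Adamts7 they were Slitrk5, Baz2b and Ptgs1 (0.972 to 0.983), and for Adamts6 Bptf, Fmo5 and Dcps (0.9747 to 0.982). For Adamts19 they were Ascc3, Peg3 and Zbtb1 (0.942 to 0.943). Many genes came close: r was over 0.9 for 282 genes with Adamts17, 166 with Adamts7, 144 with Adamts6 and 48 with Adamts19. All 8 points share the genotype contrast, so genes that differ between the genotypes come high in such a list.

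**Figure D5:**
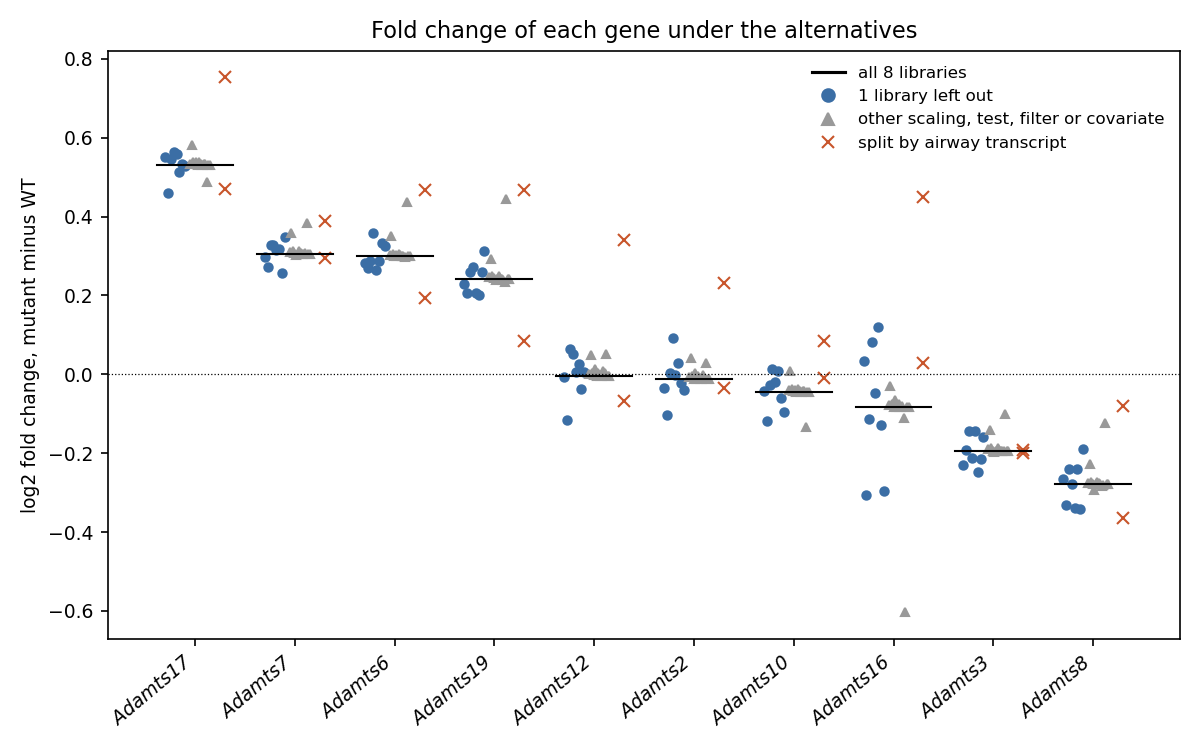
Log2 fold change of each ADAMTS gene (vertical axis) with all 8 libraries (black bar), with 1 library left out (blue), under another scaling, test, filter or covariate (grey) and within the 5 or 3 libraries split by the airway transcript Scgb3a2 (orange crosses). Adamts17 stays between 0.46 and 0.75, whereas Adamts19 runs from 0.08 to 0.47.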

How the data were processed

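Per the labels' protocols, heart RNA was extracted in Trizol, and a TruSeq kit from Illumina served for library construction. The submitters' processing notes name Trimmomatic 0.36, STAR 2.5.2b, featureCounts from Subread 1.5.2 and the build GRCm38 (mm10). Deposited values are whole-number read counts for each gene. They come in a file per library and a table of the series, between which 0 values differ. Column headers of the library files start with "Male", per the file headers. Symbols came from GENCODE M21 and were found for 48970 of 49315 genes. The sources used here give neither the strand setting nor the annotation release.

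From the counts, genes were kept by filterByExpr (minimum count 10), scaled by TMM and tested with the robust quasi-likelihood test (edgeR 4.0.16, R 4.3.3; Benjamini-Hochberg adjustment) on genotype alone. CPM and RPKM were computed from the counts, the TMM-scaled totals and the exon lengths in the files. Paralogue ratios used log2 of counts plus 0.5. The edgeR test was checked on simulated counts with planted fold changes larger than that of any member and the same dispersion for every gene. That check therefore does not cover changes of the size seen here. Replicates within a genotype differed by more than sampling noise (chi-square per degree of freedom from 2.72 to 8.52). DESeq2 1.42.0, limma-voom (limma 3.58.1), other scalings and filters, covariates, a replicate block, omission of each library and a split at 10 CPM of Scgb3a2 were the alternatives. A run on the table of the series was counted with them. All 10 members are named. From each related list up to 3 called genes per direction were named by adjusted p, with Chd4, the 3 closest genes per called member, and further list members given as not called, which were chosen after their values were seen. The members and lists were chosen with earlier results of these data known.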

Additional observations from a re-analysis of the deposited data

Results flagged for a closer look

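In WT replicate 2 the level of Adamts17 was 11.4 CPM, while the other 3 WT libraries lay between 13.9 and 14.4 CPM. This library stood apart because its gap to the nearest other was over the 95% limit of Dixon's test for 4 values. It was the only such case among 22 groups of 4 examined (the 10 members and Chd4 in each genotype), and chance gives about 1 in 20. Without it the fold change of Adamts17 was 0.46.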

How the results depend on the processing

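Over 24 alternatives, the direction of Adamts3, Adamts6, Adamts7, Adamts8, Adamts17 and Adamts19 never changed. Adamts6, Adamts7 and Adamts17 were each called under 23, Adamts19 under 12, and Adamts8 (lower) under 3. Counted among the 24 is a run on the table of the series, whose values equal those of the library files. Its calls were bound to be those of the main fit. With all 8 libraries 942 genes were called higher and 1226 lower, with 4 and 0 members. With all libraries kept or split by Scgb3a2, counts that moved by more than 1.5 times were 1856 higher genes with library totals, 392 higher and 644 lower at an adjusted p under 0.01, 135 and 183 with Xist as a covariate, 609 higher within the 5 libraries of high Scgb3a2 (10 CPM or more), and 595 higher and 812 lower within the 3 below that, where WT has 1 library and is assumed to vary like the mutants. Members called higher were 2 in the first of those splits and 2 with Xist, which has 23 to 40 counts per library. With Xist, which nearly separated the genotypes, Adamts7 (0.38, edgeR adjusted p = 0.071) and Adamts17 (0.49, edgeR adjusted p = 0.077) were not called. Members called lower were 1 (Adamts8) with DESeq2, 1 with no filter and 1 with the replicate block. Adamts19 was not called by limma-voom (adjusted p = 0.064), by the fit that is not robust (edgeR, adjusted p = 0.054) or with the block (0.24, edgeR adjusted p = 0.16). The causes were not tested.

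Leaving out each library in turn gave 579 to 850 higher genes (579 without WT replicate 1, a move of over 1.5 times), 899 to 1137 lower genes and 3 to 4 members called higher. Fold changes then ran from -0.10 to 0.093 for Adamts2, -0.12 to 0.01 for Adamts10, -0.12 to 0.06 for Adamts12 and -0.31 to 0.12 for Adamts16. Signs of uncalled members also changed for Adamts2 with library totals (0.040), limma-voom (0.0026), Xist (0.028) and low Scgb3a2 (0.23), for Adamts10 with library totals (0.0087) and low Scgb3a2 (0.086), and for Adamts16 with high (0.029) and low Scgb3a2 (0.45). Adamts12 turned positive with size factors of DESeq2 (0.00090), library totals (0.048), upper quartile (0.0038), limma-voom (0.013), no filter (0.0036), the block (0.0080), the lung covariate (0.0045), Xist (0.052) and low Scgb3a2 (0.34). Replicate numbers did not pair the samples: deviations of same-numbered libraries correlated at -0.52, 0.77, 0.56 and 0.10. With the replicate block, 1023 genes were higher and 1432 lower. Paralogue differences kept their sign under every alternative run. Their permutation test within blocks (adjusted p from 0.17 to 0.25) cannot reach 0.05 with 4 blocks, so it says nothing about stability.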
